A study of Mus musculus with 6 samples.

Results

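The NRF2 antioxidant response was followed in alveolar macrophages (AMs), the macrophages of the lung airspaces, through 10 genes chosen by name out of the 24341 genes in the deposited expression table. The 10 genes are Nfe2l2, which encodes the transcription factor NRF2, its inhibitor Keap1, and the target genes Slc7a11, Gclc, Gclm, Gsr, Txnrd1, Nqo1, Prdx1 and Srxn1. AMs were washed from the lungs of untreated female C57BL/6 mice aged 6 to 10 weeks by bronchoalveolar lavage (BAL), and their mRNA was sequenced in 3 samples from CD44+/+ mice and 3 samples from CD44-/- mice, which lack the hyaluronan receptor CD44. Each sample was a pool of 4 or 2 mice, so the spread between replicates is that between pools. Expression is given as FPKM, fragments of a transcript scaled to its length and to the mapped fragments of the library, which allows levels to be compared between genes. All 10 genes passed the filter on low values (0.5 FPKM or more on average across samples), as did 10800 genes in all.

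NRF2 is a leucine zipper transcription factor whose activity is set largely at the protein level. KEAP1 holds NRF2 in the cytosol and presents it to a CUL3 ubiquitin ligase for destruction, until oxidants or electrophiles modify cysteines of KEAP1, whereupon NRF2 builds up, pairs with small MAF proteins and binds antioxidant response elements beside its target genes. The targets make glutathione, keep thioredoxin and glutathione reduced, and remove peroxides and quinones, which matters in AMs because these cells face inhaled oxygen and take up surfactant lipids that can oxidise. Since the study also examined reactive oxygen species and oxidised phospholipids in these cells, the comparison asks whether the transcripts of this response differed between CD44+/+ and CD44-/- AMs at steady state.

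The element that NRF2 binds has the core TGACNNNGC, or GCNNNGTCA when it lies on the other strand, and both spellings were searched in the promoter window of each gene, from 250 bases before to 50 bases after a transcription start. RefSeq windows (GRCm38.p6, the assembly of mm10) were present for 8 of the 10 genes, and 5 of these 8 held the core, against 14.0% of the 27025 genes with a window. The 5 matches are shown because they are the only ones in these windows. Each is written 5' to 3' on the strand of its gene with the core in capitals and 10 bases on either side.

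Nfe2l2: tcagcccaccTGACTCCGCcatgccccgg
Gclm: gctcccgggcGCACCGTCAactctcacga
Txnrd1: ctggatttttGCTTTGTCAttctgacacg
Srxn1: gcagtgggcaGCTAGGTCAgagtgagaca
Prdx1: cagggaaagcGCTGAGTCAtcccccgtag

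The stretches lie at chr2:75704885-75704913 (Nfe2l2, minus strand), chr3:122245413-122245441 (Gclm), chr10:82859104-82859132 (Txnrd1, in the second of its 3 windows), chr2:152105542-152105570 (Srxn1) and chr4:116685456-116685484 (Prdx1), the last 4 on the plus strand. Counted in bases from the transcription start, the centre of the core is at -236 in Nfe2l2, -130 in Gclm, -88 in Txnrd1, -129 in Prdx1 and 32 in Srxn1. The match of Prdx1 also holds TGANTCA, the motif of AP-1 factors. The windows of Keap1, Nqo1 and Slc7a11 did not hold these letters, and Gclc and Gsr were without a window. A match of letters is a description and was not tested for binding.

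Cd44 itself had 527 to 540 FPKM in the CD44+/+ samples and 51.4 to 54.7 FPKM in the CD44-/- samples. Sums of FPKM over all genes lay between 487901 and 504182, and the depth of the samples relative to CD44+/+ replicate 1 lay between 0.812 and 1.05, while the number of reads is unknown. Of the 12 AM markers listed, 10 were in the table and all of these were expressed, with Siglecf at 243 to 268 FPKM. Of the 5 neutrophil markers 4 were in the table, Camp was at 0 in all samples, and the summed level was 17.8 to 64.9 FPKM in CD44+/+ and 28.3 to 33.5 FPKM in CD44-/- samples. The 5 airway secretory markers summed to 811 to 1333 and 620 to 1044 FPKM, the 5 alveolar type 2 markers to 12.7 to 22.2 and 19.3 to 89.1 FPKM, and the 5 erythroid markers in the table to 2.12 to 17.3 and 2.89 to 56.5 FPKM. Lymphocyte, monocyte and ciliated cell markers summed to less than 6 FPKM in every sample. In such bulk RNA, fewer cells of a type and less RNA per cell cannot be told apart.

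None of the 10 NRF2 pathway genes differed between CD44+/+ and CD44-/- AMs at an adjusted p under 0.05 in the limma comparison over all 10800 genes, which called 0.111% of the genes tested. Of the 10 genes, 9 had a lower mean log2 level in CD44-/- AMs, where 44.2% of all genes tested had, and their median log2 fold change was -0.17, against 0.01 over all genes. Both values rested on CD44+/+ replicate 3, without which 6 of the 10 genes were lower and the median was -0.018. An unadjusted p under 0.05 was reached by Nfe2l2 alone, against 7.69% of all genes tested. Nfe2l2 was also the only one of the 10 in which every CD44-/- sample was below every CD44+/+ sample. Such a gap was seen in 4.88% of all genes tested in this direction and in 6.75% in the other, to which none of the 10 belonged. All log2 fold changes set CD44-/- against CD44+/+ AMs and were taken after adding 0.1 to the FPKM values.

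**Figure D1:**
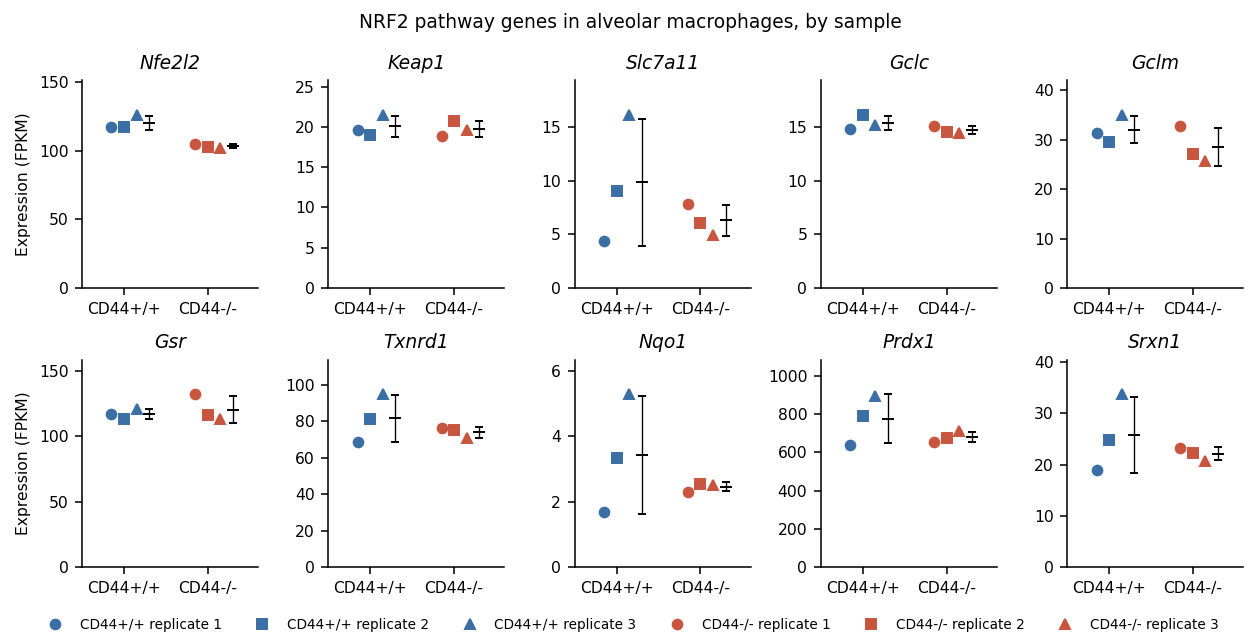
Expression in FPKM (vertical axis, from 0) of the 10 NRF2 pathway genes in each sample of CD44+/+ (blue) and CD44-/- AMs (red), with the symbol giving the replicate number and the black bar the mean and SD of 3 samples. Nfe2l2 is the one gene without overlap, and in Slc7a11, Nqo1, Srxn1, Prdx1 and Txnrd1 the CD44-/- samples lie within the wider range of the CD44+/+ samples.

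Levels of the 10 genes spanned from Prdx1, with a mean of 728 FPKM over the 6 samples, to Nqo1, with 2.95 FPKM. Prdx1 was thus above 99.4% of the genes tested and Nqo1 above 17.5%. Gsr (119 FPKM) and Nfe2l2 (112 FPKM) came next, with overlapping ranges. Gsr was above Nfe2l2 in the 3 CD44-/- samples and equal to it or lower in the 3 CD44+/+ samples, so their order differed between the genotypes. Txnrd1 (77.8 FPKM) was below both in every sample, and was followed by Gclm (30.2 FPKM), Srxn1 (23.9 FPKM), Keap1 (19.9 FPKM), Gclc (15.0 FPKM) and Slc7a11 (8.05 FPKM). The ranges of the neighbours Gclm and Srxn1, Srxn1 and Keap1, Gclc and Slc7a11, and Slc7a11 and Nqo1 overlapped, although Gclm was above Srxn1 and Slc7a11 above Nqo1 within each of the 6 samples.

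Nfe2l2 lies on chromosome 2 of mm10 from 75675519 to 75704641, at 27.1 Mb from Cd44 on the same chromosome. Its expression was 117, 117 and 126 FPKM in the CD44+/+ samples and 105, 103 and 102 FPKM in the CD44-/- samples. The values of each genotype lay close together and did not overlap. CD44+/+ AMs averaged 120.0 ± 5.20 FPKM and CD44-/- AMs 103 ± 1.53 FPKM (SD, n = 3 each). The log2 fold change was -0.21 (standard error 0.05, 95% interval -0.33 to -0.10), or 0.862 of the CD44+/+ level. The unadjusted p was 0.00197 and the adjusted p 0.266, which ranged from 0.149 to 0.782 over the alternative settings. An exact two-sided permutation test gave p = 0.1, the smallest p that 3 samples against 3 allow. The 3 genes whose pattern over the 6 samples was most like that of Nfe2l2 were Rab37, Ssbp1 and Surf2, with a root mean square difference of 0.02, 0.03 and 0.03 between the centred log2 values.

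Keap1, the inhibitor of NRF2, lies on chromosome 9 from 21229730 to 21239332. It had 19.7, 19.0 and 21.5 FPKM in CD44+/+ samples and 18.8, 20.7 and 19.7 FPKM in CD44-/- samples, which overlapped. The averages of 20.1 ± 1.28 and 19.7 ± 0.971 FPKM (SD, n = 3 each) gave a log2 fold change of -0.02 (95% interval -0.18 to 0.13, adjusted p = 0.986). The interval thus leaves room for levels from 0.884 to 1.10 of the CD44+/+ level. Keap1 transcripts per Nfe2l2 transcript, in FPKM within a sample, were 0.168, 0.163 and 0.171 in CD44+/+ AMs and 0.179, 0.201 and 0.193 in CD44-/- AMs. Each CD44-/- ratio was above each CD44+/+ ratio, with a mean log2 difference of 0.19 (exact two-sided permutation test, p = 0.1, and 0.4 after adjustment over 4 ratios). The ratio uses the same Nfe2l2 values as above, whose log2 fold change was -0.21, so it is not a separate result.

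The transcripts that supply glutathione are Slc7a11, which encodes the cystine importer xCT, and Gclc and Gclm, the catalytic and the modifier subunit of the enzyme that joins glutamate to cysteine. Slc7a11, on chromosome 3 from 50364936 to 50443613, was found at 4.37, 8.99 and 16.1 FPKM in CD44+/+ and at 7.82, 6.07 and 4.97 FPKM in CD44-/- samples. The CD44+/+ samples differed 3.68-fold among themselves and enclosed all CD44-/- values. The averages of 9.82 ± 5.91 and 6.29 ± 1.44 FPKM (SD, n = 3 each) gave a log2 fold change of -0.47 (standard error 0.40, 95% interval -1.37 to 0.43, adjusted p = 0.911). It was -0.95 without CD44+/+ replicate 1 and -0.02 without CD44+/+ replicate 3, so these 2 pools decided its size. Gclc, on chromosome 9 from 77754535 to 77794489, had 14.8, 16.1 and 15.2 FPKM in CD44+/+ samples and 15.1, 14.5 and 14.4 FPKM in CD44-/- samples. The genotypes overlapped, and the log2 fold change was -0.07 (95% interval -0.21 to 0.07, adjusted p = 0.925) and -0.032 without CD44+/+ replicate 2.

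Gclm, on chromosome 3 from 122245557 to 122267215, had 31.4, 29.6 and 35.0 FPKM in CD44+/+ samples and 32.8, 27.1 and 25.6 FPKM in CD44-/- samples. Here CD44-/- replicate 1 lay among the CD44+/+ samples and the other two below them. The log2 fold change was -0.17 (95% interval -0.40 to 0.06, adjusted p = 0.800). It was -0.28 without CD44-/- replicate 1, -0.098 without CD44-/- replicate 3 and -0.11 without CD44+/+ replicate 3. Within each sample Gclm was 1.78 to 2.30 times as high as Gclc, a ratio that did not separate the genotypes (exact two-sided permutation test, p = 0.5, adjusted 0.6). The ratio of Slc7a11 to Gclc was 0.295, 0.558 and 1.06 in CD44+/+ AMs and 0.518, 0.419 and 0.345 in CD44-/- AMs (exact two-sided permutation test, p = 0.6, adjusted 0.6). The cystine importer varied against the enzyme downstream of it mainly among CD44+/+ pools.

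Of the genes for reductases, Gsr returns oxidised glutathione to its reduced form, Txnrd1 does the same for cytosolic thioredoxin, and Nqo1 reduces quinones. Gsr, on chromosome 8 from 33653238 to 33698162, was the one gene of the 10 with a positive log2 fold change, 0.04 (95% interval -0.11 to 0.19, adjusted p = 0.971), which turned to -0.031 without CD44-/- replicate 1. It had 117, 113 and 121 FPKM in CD44+/+ samples and 132, 116 and 113 FPKM in CD44-/- samples, of which only CD44-/- replicate 1 stood above the CD44+/+ range. Txnrd1, on chromosome 10 from 82833951 to 82897724, had 68.8, 81.3 and 94.8 FPKM in CD44+/+ samples and 76.5, 75.0 and 70.7 FPKM in CD44-/- samples. All CD44-/- values fell inside the CD44+/+ range, and the log2 fold change was -0.13 (95% interval -0.37 to 0.11, adjusted p = 0.897). It was -0.25 without CD44+/+ replicate 1 and -0.014 without CD44+/+ replicate 3. The ratio of Txnrd1 to Gsr was 0.588, 0.719 and 0.784 in CD44+/+ AMs and 0.580, 0.646 and 0.626 in CD44-/- AMs (exact two-sided permutation test, p = 0.3, adjusted 0.6).

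Nqo1 had 1.68, 3.35 and 5.29 FPKM in CD44+/+ samples and 2.31, 2.56 and 2.53 FPKM in CD44-/- samples. The CD44+/+ samples differed 3.15-fold and the CD44-/- samples 1.11-fold, with the latter inside the range of the former. Its log2 fold change of -0.32 (standard error 0.33, 95% interval -1.09 to 0.44, adjusted p = 0.936) became -0.75 without CD44+/+ replicate 1 and 0.05 without CD44+/+ replicate 3. The locus that the deposited table gives for Nqo1 on chromosome 8, from 107256164 to 107558595, is wider than the gene in GENCODE (107388225 to 107403206).

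Peroxide removal is represented by Prdx1, an abundant peroxidase that thioredoxin recharges, and Srxn1, the sulfiredoxin that repairs peroxiredoxins inactivated by too much peroxide. Prdx1, on chromosome 4 from 116684965 to 116700000, had 641, 788 and 897 FPKM in CD44+/+ samples and 656, 674 and 711 FPKM in CD44-/- samples. The averages of 775 ± 128 and 680.3 ± 28.0 FPKM (SD, n = 3 each) gave a log2 fold change of -0.18 (95% interval -0.42 to 0.07, adjusted p = 0.821), which became -0.31 without CD44+/+ replicate 1 and -0.064 without CD44+/+ replicate 3. Srxn1, on chromosome 2 from 152105524 to 152111376 and 49.2 Mb from Cd44, had 19.0, 24.7 and 33.7 FPKM in CD44+/+ samples and 23.2, 22.3 and 20.7 FPKM in CD44-/- samples. For both genes the lowest and the highest of the 6 values belonged to CD44+/+ samples. The log2 fold change of Srxn1 was -0.19 (95% interval -0.58 to 0.21, adjusted p = 0.925), and it was -0.39 without CD44+/+ replicate 1 and 0.02 without CD44+/+ replicate 3.

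**Figure D2:**
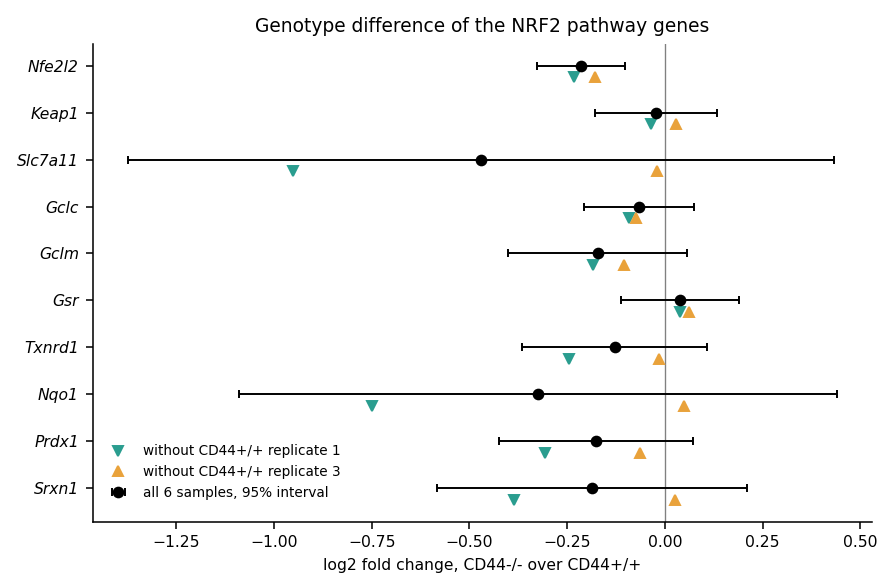
Log2 fold change of CD44-/- over CD44+/+ AMs (horizontal axis) for the 10 NRF2 pathway genes, as the limma estimate with its 95% interval (black) and as the estimate with CD44+/+ replicate 1 (green) or replicate 3 (orange) left out. Only the interval of Nfe2l2, from -0.33 to -0.10, lies apart from 0, and Slc7a11 and Nqo1 move from -0.95 and -0.75 to -0.02 and 0.05 with the pool that is left out.

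Pools of CD44+/+ mice lay far apart in 5 of the 10 genes. In Slc7a11, Nqo1, Srxn1, Prdx1 and Txnrd1, CD44+/+ replicate 1 had the lowest and CD44+/+ replicate 3 the highest value of all 6 samples, as in 2.40% of all genes tested. CD44+/+ replicate 1 was the lowest and replicate 3 the highest of the CD44+/+ samples in these 5 of the 10 genes, against 9.40% of all genes tested. CD44+/+ replicate 3 was the highest of all 6 samples in 8 of the 10 genes, against 9.42% of all genes tested. These counts describe a pattern that was seen in the values first, and they carry no test. The mean of the 10 genes, centred on the 6 samples on the log2 scale, was -0.20, 0.08 and 0.37 in CD44+/+ replicates 1, 2 and 3. In CD44-/- replicates 1, 2 and 3 it was -0.02, -0.09 and -0.15. The median of the 10 genes in the CD44+/+ replicates was nearer to 0, at -0.095, 0.071 and 0.26. Over all genes tested the same mean was 0.03, -0.02 and -0.05 in the CD44+/+ samples, so that replicates 1 and 3 stood the other way round.

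The SD of the log2 values was larger in CD44+/+ than in CD44-/- samples in 8 of the 10 genes, against 56.8% of all genes tested, the exceptions being Gclm and Gsr. Its median over the 10 genes was 0.18 in CD44+/+ and 0.07 in CD44-/- AMs, against 0.10 and 0.09 over all genes tested. Slc7a11 had an SD of 0.93 in CD44+/+ AMs, and of the 3441 genes with a mean between 2 and 10 FPKM, 0.436% had a larger one. It was also wide in CD44-/- AMs, with an SD of 0.32 that 4.27% of these genes exceeded. Nqo1, in the same range of levels, had an SD of 0.80 in CD44+/+ AMs, where 0.639% of these genes had a larger one, but of 0.08 in CD44-/- AMs, where 69.1% had. Among the CD44-/- samples replicate 1 was the highest in 7 of the 10 genes, against 42.2% of all genes tested, so the sample that was high in CD44-/- AMs did not share its number with the one that was high in CD44+/+ AMs.

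**Figure D3:**
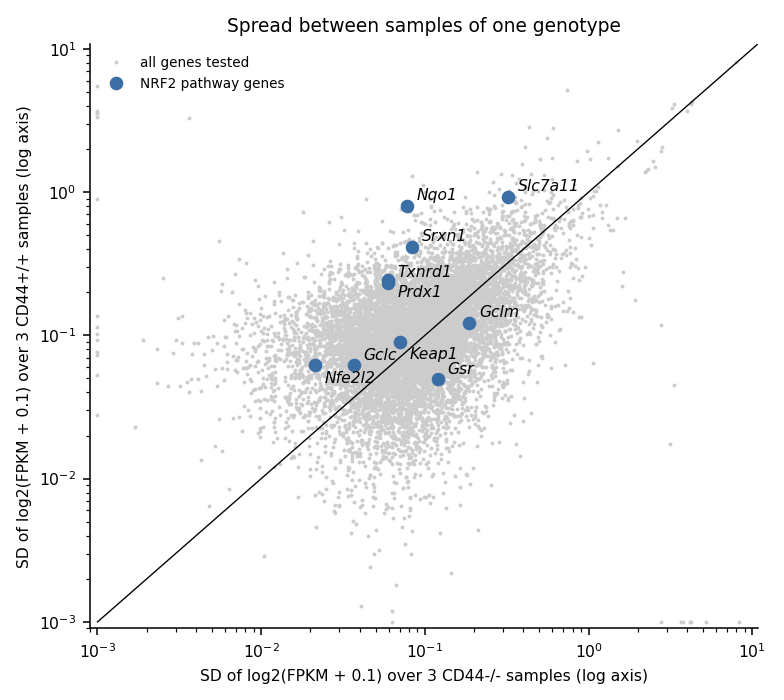
SD of log2(FPKM + 0.1) over the 3 CD44+/+ samples (vertical, log axis) against that over the 3 CD44-/- samples (horizontal, log axis) for the 10 NRF2 pathway genes (blue) and all genes tested (grey), with equality as the line and SDs under 0.001 (22 genes) drawn at the edge. Gclm and Gsr lie below the line and the other genes above it, among them Nfe2l2, whose SD is small in both genotypes (0.06 and 0.02).

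The labels give no batch for the pools, and the pool sizes, listed as 4, 2 or 2 mice, are given without replicate numbers. Summed neutrophil markers were 17.8, 64.9 and 52.4 FPKM in CD44+/+ replicates 1, 2 and 3, so the lowest sample was again replicate 1, but the highest was replicate 2. Of the 10 AM markers in the table, 4 had CD44+/+ replicate 1 as the lowest and replicate 3 as the highest CD44+/+ sample. Over all genes tested the share was 9.40%. In CD44+/+ replicates 1, 2 and 3, Marco, a scavenger receptor, had 264, 349 and 532 FPKM, Fabp4, a fatty acid carrier, had 150.0, 238 and 257 FPKM, and Car4, a carbonic anhydrase, had 420.0, 492 and 620.0 FPKM. Other AM markers stood the opposite way, with the highest value in replicate 1 and the lowest in replicate 3, namely the lectin Siglecf (268, 256 and 250.2 FPKM), the transcription factor Pparg (159, 144 and 138 FPKM) and the mannose receptor Mrc1 (535, 528 and 524 FPKM). The part of these differences in the pattern of the NRF2 targets was not tested.

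A list of 24 other NRF2 targets was examined beside the 10 genes, of which 23 were above the limit of 0.5 FPKM. None of them passed an adjusted p of 0.05, 11 were lower (44.2% over all genes tested) and 12 higher in CD44-/- AMs, and their median log2 fold change was 0.01, as over all genes. Without overlap, 2 of the 23 were lower and 1 was higher, against 4.88% and 6.75% of all genes tested. Me1, the cytosolic malic enzyme that makes NADPH, had 0.868, 1.12 and 1.26 FPKM in CD44+/+ and 0.814, 0.766 and 0.452 FPKM in CD44-/- samples, without overlap (log2 fold change -0.63, adjusted p = 0.619, and -0.40 without CD44-/- replicate 3). Taldo1, a transaldolase of the pentose phosphate pathway, was also lower without overlap, with a log2 fold change of -0.05 (adjusted p = 0.926). Ephx1, the microsomal epoxide hydrolase, was higher without overlap. It had 7.71, 6.45 and 6.82 FPKM in CD44+/+ samples and 9.72, 9.94 and 9.50 FPKM in CD44-/- samples, a log2 fold change of 0.47 (95% interval 0.28 to 0.66, adjusted p = 0.126, and 0.0445 without CD44+/+ replicate 1, which would pass). Over all alternative settings the adjusted p of Ephx1 ranged from 0.0445 to 0.579, and its direction was opposite to that of Nfe2l2.

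The difference between CD44+/+ pools was seen in this list too. Of its 23 genes 11 had CD44+/+ replicate 1 as the lowest and replicate 3 as the highest CD44+/+ sample (9.40% over all genes tested). In 13 of them CD44+/+ replicate 3 was the highest of all 6 samples (9.42% over all genes tested). Hmox1, which encodes the heme-degrading enzyme HO-1 and is named, like the next genes, after its values were seen, had 175, 237 and 357 FPKM in CD44+/+ samples and 309, 202 and 192 FPKM in CD44-/- samples. Osgin1, a target induced by oxidative stress, had 0.457, 1.05 and 1.64 FPKM in CD44+/+ and 1.36, 1.32 and 0.780 FPKM in CD44-/- samples. Blvrb, a biliverdin reductase, had 59.8, 75.4 and 99.3 FPKM in CD44+/+ samples and 62.6 to 68.0 FPKM in CD44-/- samples. The ferritin chains Fth1 (7519, 8821 and 10465 FPKM in CD44+/+ samples) and Ftl1 (4470, 4930 and 5600 FPKM) had the same lowest and highest CD44+/+ sample. The spread was not shared by all NRF2 targets, since G6pdx, which starts the pentose phosphate pathway, had 99.3 ± 0.808 FPKM in CD44+/+ and 96.9 ± 1.46 FPKM in CD44-/- AMs (SD, n = 3 each), and Taldo1 lay between 612 and 651 FPKM in the 6 samples.

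**Figure D4:**
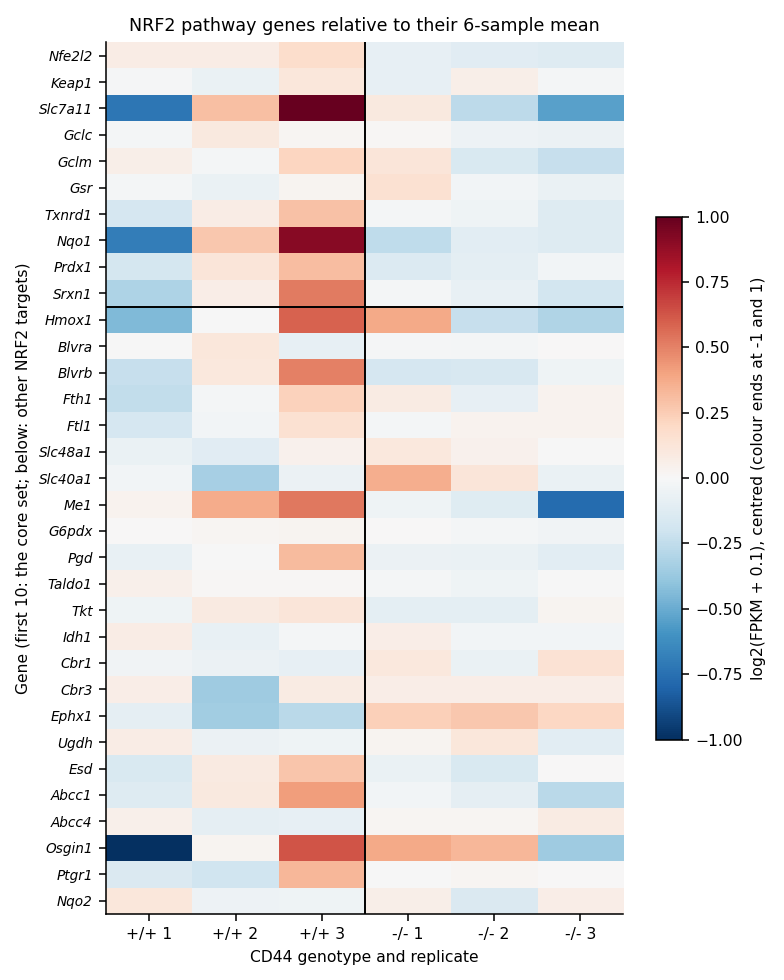
Log2(FPKM + 0.1) of the 10 NRF2 pathway genes (above the line) and the 23 other NRF2 targets tested (below it) in the 6 samples, each gene centred on its mean over the samples, with red higher and blue lower. CD44+/+ replicate 3 is the reddest sample and CD44+/+ replicate 1 the bluest for Slc7a11, Nqo1, Srxn1, Hmox1 and Osgin1, and the CD44-/- samples lie between them.

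Partners and regulators of NRF2 were examined as a list of 12 genes, 11 of them tested. None passed an adjusted p of 0.05, 8 were lower (44.2% over all genes tested) and 3 higher in CD44-/- AMs, and the median log2 fold change was -0.04. Lower without overlap were 3 of the 11, namely Maff, Mafg and Nfe2l1, against 4.88% of all genes tested. Maff, a small MAF protein that dimerises with NRF2, had 23.4, 28.5 and 27.0 FPKM in CD44+/+ samples and 20.5, 22.7 and 18.4 FPKM in CD44-/- samples, without overlap (log2 fold change -0.36, 95% interval -0.58 to -0.13, adjusted p = 0.369). Mafg, of the same family, was likewise lower without overlap, at 13.3, 14.2 and 14.2 FPKM against 12.8, 12.8 and 9.76 FPKM (log2 fold change -0.25, adjusted p = 0.647, and -0.12 without CD44-/- replicate 3). Nfe2l1, the related factor NRF1, had 62.3 to 66.0 FPKM in CD44+/+ and 58.8 to 61.7 FPKM in CD44-/- samples (log2 fold change -0.10, adjusted p = 0.721). Of these 11 genes 2 had CD44+/+ replicate 1 as the lowest and replicate 3 as the highest CD44+/+ sample (9.40% over all genes tested). The median SD of the list was 0.05 in CD44+/+ and 0.09 in CD44-/- AMs.

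In the wider glutathione system 20 of 21 listed genes were tested, and none passed an adjusted p of 0.05. Of these, 15 were lower (44.2% over all genes tested) and 5 higher in CD44-/- AMs, and the median log2 fold change was -0.02. Gsta4, a glutathione transferase for products of lipid peroxidation, was the 1 gene of these 20 lower without overlap (4.88% over all genes tested). It had 3.30, 3.44 and 3.05 FPKM in CD44+/+ and 2.65, 2.52 and 2.33 FPKM in CD44-/- samples (log2 fold change -0.37, adjusted p = 0.412). Of 18 tested thioredoxins, peroxiredoxins, dismutases and related genes none passed and 9 were lower (44.2% over all genes tested), with a median log2 fold change of 0.00431. Prdx4, the peroxiredoxin of the endoplasmic reticulum, was the 1 gene of these 18 higher without overlap (6.75% over all genes tested). Prdx4 had 37.2, 34.8 and 32.5 FPKM in CD44+/+ and 40.7, 41.5 and 48.3 FPKM in CD44-/- samples (log2 fold change 0.32, 95% interval 0.13 to 0.50, adjusted p = 0.330), so it differed in direction from Prdx1.

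The NADPH oxidase, a source of superoxide, was represented by 7 tested genes of 10, of which none passed and 5 were lower (44.2% over all genes tested), with a median log2 fold change of -0.02. Its catalytic subunit Cybb was the 1 gene of these 7 lower without overlap (4.88% over all genes tested). Cybb had 585, 638 and 648 FPKM in CD44+/+ and 580.0, 537 and 540.0 FPKM in CD44-/- samples (log2 fold change -0.17, 95% interval -0.31 to -0.04, adjusted p = 0.489). The factor ATF4, which also acts on Slc7a11, and its targets formed a list of 11 genes with 10 tested. Of these 9 were lower (44.2% over all genes tested), the median log2 fold change was -0.21, and 1 passed (0.111% over all genes), Atf5, at 19.5, 22.0 and 21.9 FPKM in CD44+/+ and 11.4, 10.8 and 11.4 FPKM in CD44-/- samples (adjusted p = 0.00187). Atf4 (log2 fold change -0.24, adjusted p = 0.289), Asns (-0.78, adjusted p = 0.350) and Slc7a5 (-0.18, adjusted p = 0.385) were lower without overlap and did not pass, so that 4 of 10 genes were lower without overlap, against 4.88% of all genes tested. The ATF4 list, which holds Atf5, was chosen with earlier results of these data known, so these counts are a description and carry no test. CD44+/+ replicate 1 was the lowest and replicate 3 the highest CD44+/+ sample in 4 of the 7 NADPH oxidase genes, 5 of the 20 glutathione genes, 5 of the 18 thioredoxin and peroxiredoxin genes and 0 of the 10 genes of the ATF4 list, against 9.40% of all genes tested. This pattern was thus also present outside the lists of NRF2 targets.

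**Figure D5:**
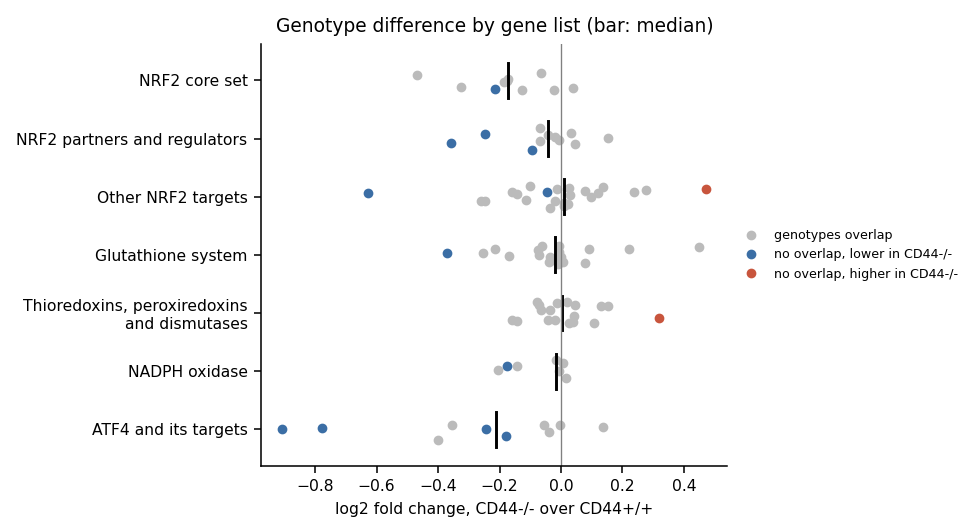
Log2 fold change of CD44-/- over CD44+/+ AMs (horizontal axis) of each tested gene in the NRF2 core set of 10 genes and in 6 further lists, coloured by whether the samples of the genotypes overlap, with the black bar as the median of the list. The medians lie between -0.21 for ATF4 and its targets and 0.01 for the other NRF2 targets.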

How the data were processed

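RNA of AMs from BAL, pooled from mice, was sequenced as paired-end 42 bp reads in 3 CD44+/+ and 3 CD44-/- samples. Reads were mapped on mm10 by the authors using STAR, and Cufflinks gave the deposited FPKM values per gene and sample. The table also holds the authors' means, fold changes and Cuffdiff p-values and q-values, which were not used. Gene names and loci are in another order than identifiers and values (0 rows match), so values were read by identifier and loci by name, with a first base of 1. Libraries were stranded (NEBNext Ultra II), but the annotation and strand setting of Cufflinks are not given in the sources used here, and genes on the opposite strand overlap Keap1, Gclm, Txnrd1 and Slc7a11 in GENCODE vM21. Of the 24341 genes, 1 lacked a value and was left out.

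The 10800 genes averaging 0.5 FPKM or more were fitted on log2(FPKM + 0.1) by genotype with limma 3.58.1 in R 4.3.3 (lmFit and eBayes with a trend, two-sided, Benjamini-Hochberg over all genes tested), and an adjusted p under 0.05 was called. The fit was tested on simulated data. Ratios of genes within a sample were compared by an exact permutation test, adjusted over 4 ratios. Relative depth came from the steps between values under 0.05 FPKM, no interval for counting error could be given, and p-values measure the spread between pools. The deviations of same-numbered samples from their group means correlated at 0.212, 0.132 and 0.211 across genes, each above 0.1, so a fit with the replicate number as a block was treated as a paired fit. Correlations between samples of different numbers are not given here, so these values do not show that the samples were paired.

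Genes named are the 10 genes, Cd44, and, in 6 further lists, genes called or without overlap. Others were named after their values were seen. The 10 genes and the lists were chosen with earlier results of these data known. Alternatives were the replicate block, leaving out each sample, pseudocounts of 1 and 0.01, quantile normalization, scaling by median ratios, a filter at 1 FPKM or none, and eBayes either robust or with no trend.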

Additional observations from a re-analysis of the deposited data

How the results depend on the processing

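Under the 15 alternatives none of the 10 NRF2 pathway genes reached an adjusted p under 0.05 with limma, and their lowest adjusted p was 0.149, for Nfe2l2 without CD44+/+ replicate 1. At an unadjusted p under 0.05 there was 1 of the 10 genes in the main comparison, 6 without CD44+/+ replicate 1 and 2 without CD44-/- replicate 1, while over all 10800 genes there were 831, 1353 and 923. The direction of a gene turned in 5 fits, each with a sample left out: Keap1 ranged from -0.059 to 0.028 (positive without CD44+/+ replicate 3 and, at 0.01, without CD44-/- replicate 1), Gsr from -0.031 (without CD44-/- replicate 1) to 0.081, and Nqo1 from -0.75 to 0.049 and Srxn1 from -0.39 to 0.025 (both positive without CD44+/+ replicate 3). The log2 difference in the ratio of Slc7a11 to Gclc ranged from -0.87 to 0.053, positive without CD44+/+ replicate 3. The cause was not tested. The median log2 fold change of the 10 genes went from -0.24 (without CD44+/+ replicate 1) to -0.018 (without CD44+/+ replicate 3), and 9 of the 10 genes were negative after either scaling, against 6 without CD44+/+ replicate 3.

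Over all genes 12 were called, 7 without the filter on low values, and 6 to 36 with samples left out in turn, the highest without CD44+/+ replicate 1 (36) and CD44-/- replicate 1 (22) and the lowest without CD44+/+ replicate 2 (7) and CD44-/- replicate 2 (6). With the replicate block 9 were called, and no call among the 10 genes changed. The block cannot change log2 fold changes, because each replicate number occurs equally in both genotypes, and the median of the 10 genes was -0.17. Of genes with an unadjusted p under 0.05, 318 of 831 were lower in CD44-/- AMs, against 446 of 901 after quantile normalization. Depth in reads is unknown, so how far counting error widened the low values of Nqo1 and Slc7a11 was not tested.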
